A study of Drosophila melanogaster with 6 samples.

Results

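The UDP-glycosyltransferase genes of Drosophila melanogaster were examined in whole female third-instar larvae mutant for roX1 and roX2. These larvae carried or lacked a roX1 transgene. The members are the genes whose only symbol in the platform annotation is Ugt followed by a number. This rule found 35 genes among 11982 genes with a probeset of 1 symbol, and each was read by 1 probeset, a set of short probes for 1 transcript. RefSeq lists the same number, 35 genes, under such a symbol. They fall into 13 numbered families, of which family 37 holds 8 members and family 35 holds 6.

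UDP-glycosyltransferases sit in the membrane of the endoplasmic reticulum and move a sugar from a UDP-sugar onto small fat-soluble molecules. In insects the sugar is mostly glucose, in mammals mostly glucuronic acid. The products are more soluble in water and can be excreted, so the family works downstream of cytochrome P450 enzymes in the handling of plant toxins, insecticides, pigments, hormones and odorants. Insect gut, fat body, Malpighian tubules and antennae are known sites of expression.

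Mutant larvae had the genotype roX1SMC17ADf(1)52; [w+4D4.3] and are mutant for both roX1 and roX2, the noncoding RNAs of the complex that raises X-linked expression in males. Control larvae carry the same mutations and transgene and in addition [hsp83-roX1+], a roX1 transgene on the hsp83 promoter. There were 3 arrays for each genotype, and a pool of 50 larvae, prepared independently, gave the RNA for each of them. No larvae with intact roX genes were compared, where the transgenes are inserted is unknown here, and the roX1 level was not analysed here, so it does not check the labels. The series asks whether roX RNAs matter for gene expression in females. In RNA of whole larvae, fewer cells of a type and less RNA per cell cannot be told apart.

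All values are log2 expression values from robust multi-array average (RMA), and each difference is mutant minus control. Of 18769 probesets other than controls, the 40% with the lowest mean over the 6 arrays were left out, and 11262 were tested with limma. A gene was called at an adjusted p under 0.05. Of the tested probesets, 62 were called, which is 0.551%. Control replicate 1 stood apart from the other 5 arrays: its mean absolute deviation from the probeset means was 0.194, against 0.108 to 0.143 on the others. Many of the differences are therefore also given without it. The excess of 3' over 5' signal of the actin control probesets, a sign of RNA breakdown, lay between 0.770 and 0.940 in mutants and between 0.704 and 0.744 in controls. That of the GAPDH control probesets was 1.46, 1.46 and 1.23 in mutants and 1.35, 1.41 and 1.36 in controls, so here the groups overlapped and mutant replicate 3 was the lowest. The part of either in the results was not tested.

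Of the 35 members, 24 passed the filter on level and 11 did not. The brightest probesets were those of Ugt36D1 (mean 10.2 over 6 arrays), Ugt35A1 (9.45), Ugt316A1 (9.39), Ugt37A3 (9.29) and Ugt302C1 (8.97). Signals of different probesets depend on their probes as well as on the transcript, so this order is not an order of transcript abundance. The dimmest tested member was Ugt37C2, with a mean of 4.82, and the brightest one left out was Ugt49C1, with 4.21. The 11 dim members had means from 3.15 to 4.21 and came from families 35 (Ugt35D1, Ugt35E1, Ugt35E2), 36 (Ugt36F1), 37 (Ugt37A1, Ugt37E1), 49 (Ugt49B2, Ugt49C1), 302 (Ugt302E1), 303 (Ugt303B2) and 307 (Ugt307A1). The probesets of Ugt37D1, Ugt36E1 and Ugt50B3 have names ending in s_at, a mark of sets that can match more than 1 transcript, so their values may include another transcript.

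**Figure D1:**
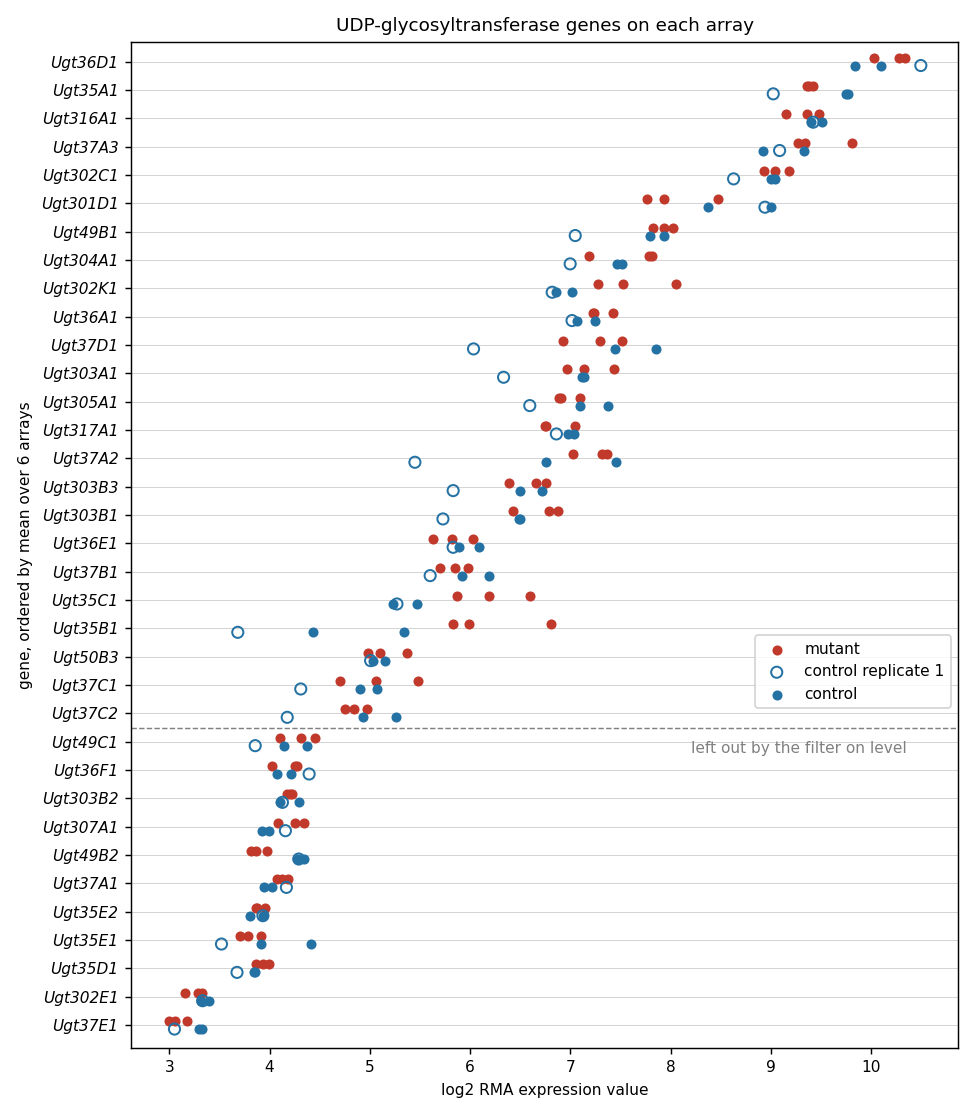
Log2 RMA values of the 35 UDP-glycosyltransferase genes on each of 6 arrays. Red points are the 3 mutant arrays, filled blue points control replicates 2 and 3, open circles control replicate 1, and genes below the dashed line did not pass the filter on level. For 16 of the 24 tested genes the open circle is the lowest of the 6 values.

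No member was called in the comparison of mutants with controls, and the smallest adjusted p with limma was 0.150. At an unadjusted p under 0.05 there were 4 of 24 members, 3 above and 1 below the control, against 9.00% of all tested probesets (4.30% above and 4.71% below). On 3 members, Ugt35C1, Ugt35B1 and Ugt302K1, the 3 mutant values all lay above the 3 control values, and on none all below. Such a separation in either direction was found on 16.3% of all tested probesets, with 7.00% above and 9.33% below. Both counts of members, 4 and 3, include Ugt35B1, which passed the filter on level only through its mutant values. Without mutant replicate 1 or control replicate 2, 7 members had groups that did not overlap, against 25.1% and 24.6% of probesets. Without mutant replicate 3 there were 5, against 33.7%. In the other fits with 1 array left out there were 4, against 21.6% to 27.6%. Without control replicate 2, 7 members had an unadjusted p under 0.05, against 7.39% of probesets. In the other fits with 1 array left out 3 or 4 did, against 5.31% to 10.5%. These counts were added after the data were seen. The median difference over the 24 members was 0.17, against -0.0048 over 8882 tested genes. Differences were above 0 for 17 members, against 47.6% of tested probesets, and 19 members had a difference smaller than 0.5 in size. The median depended on single arrays: it was 0.055 without control replicate 1 and 0.32 without control replicate 2. Without control replicate 1 14 differences were above 0, against 49.2% of tested probesets.

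The largest difference was that of Ugt35B1, formerly Ugt35b or Ugt86Db, a gene known for its expression in the antenna of the adult fly. Its mutant values were 5.98, 5.83 and 6.81 and its control values 3.68, 4.43 and 5.34. The groups did not overlap, but the controls were spread over a wide range and the lowest of them was control replicate 1. The mean was 6.21 ± 0.53 in mutants and 4.49 ± 0.83 in controls (SD, n = 3 per group), a difference of 1.72 (SE 0.44, 95% interval 0.68 to 2.77) that was not called (limma adjusted p = 0.282). Without control replicate 1 the difference was 1.32 (limma adjusted p = 0.275). Control replicates 1 and 2 were under 4.51, the level at which the filter was set, and so was the control mean. The gene thus passed the filter only through its mutant values, and the size of the difference is uncertain.

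Ugt35C1, formerly Ugt86Dd, is known for its part in the resistance of larvae to nicotine. It had the smallest p among the members. Its mutant values were 6.19, 5.87 and 6.60 and its control values 5.27, 5.47 and 5.23. The 3 controls lay close together here, and every mutant value lay above them. The difference was 0.90 (SE 0.18, 95% interval 0.46 to 1.33; limma adjusted p = 0.150), or 1.86-fold. It depended little on control replicate 1, without which it was 0.87 (limma adjusted p = 0.206).

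Ugt302K1, formerly Ugt86Di, had mutant values of 7.52, 8.06 and 7.27 and control values of 6.82, 6.86 and 7.01. All 3 mutant values lay above the controls, which again lay close together. The difference was 0.72 (SE 0.19, 95% interval 0.26 to 1.18; limma adjusted p = 0.314), and 0.68 without control replicate 1.

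Ugt301D1 was the only member below the control with an unadjusted p under 0.05. Its mutant values were 8.48, 7.76 and 7.93 and its control values 8.94, 8.38 and 9.00. The groups overlapped, since mutant replicate 1 lay above control replicate 2. The difference was -0.72 (SE 0.23, 95% interval -1.27 to -0.16; limma adjusted p = 0.435), and -0.63 without control replicate 1.

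The next members in p were Ugt37A3 and Ugt303B1. Ugt37A3 had 9.34, 9.27 and 9.81 in mutants and 9.09, 9.33 and 8.93 in controls, a difference of 0.36 (limma adjusted p = 0.600) that was 0.35 without control replicate 1. Ugt303B1 had 6.88, 6.79 and 6.43 in mutants and 5.73, 6.49 and 6.49 in controls, a difference of 0.46 (limma adjusted p = 0.617) that was 0.21 without that array. In both the groups overlapped. The remaining 18 tested members had differences from -0.13 to 0.68, with limma adjusted p-values from 0.634 to 0.950. Their intervals all included 0, as did those of 20 of the 24 tested members.

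**Figure D2:**
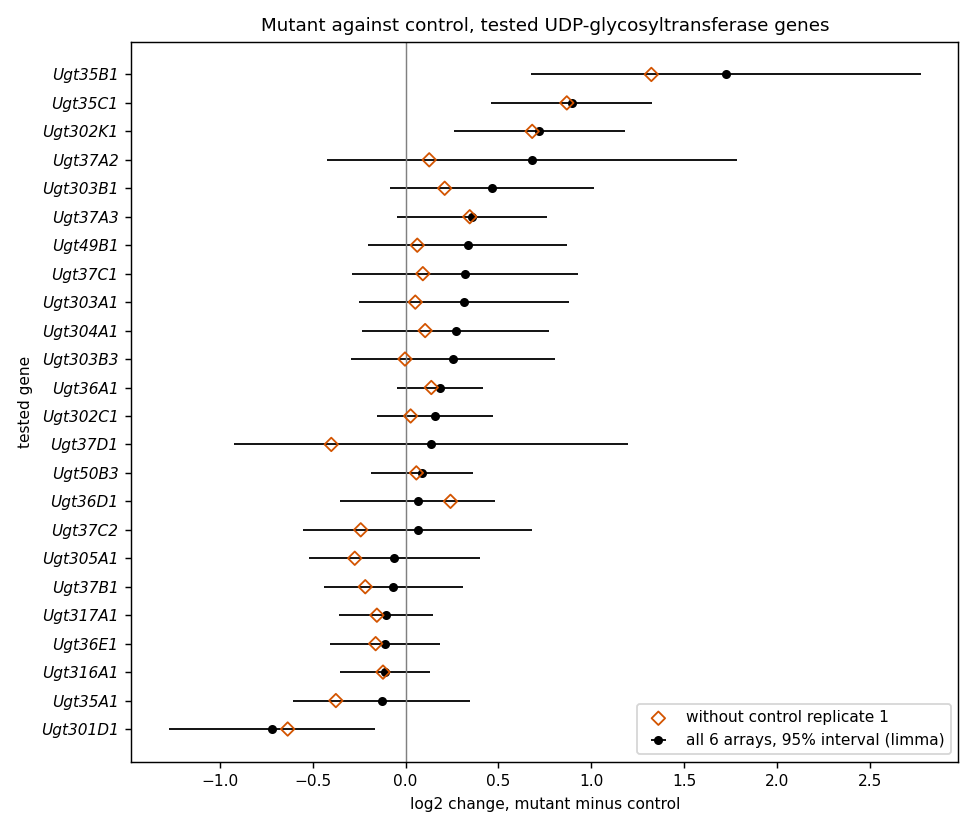
Log2 change, mutant minus control, of the 24 tested UDP-glycosyltransferase genes, with limma's 95% interval from all 6 arrays (black) and the value without control replicate 1 (open diamonds). For 22 of the 24 genes the diamond lies to the left of the black point, and the exceptions are Ugt36D1 and Ugt301D1.

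Control replicate 1 held low values of many members. It was the lowest array for 16 of the 24, or 66.7%, against 25.9% of all 8882 tested genes. The members' median deviation from their own means was -0.43 on this array, and between 0.022 and 0.126 on the other 5. The same array was low for cytochrome P450 genes, with a median deviation of -0.26 over 69 genes, and for glutathione transferase genes, with -0.20 over 31, while the median of all tested genes was 0.0031. It was the lowest array for 41 of those 69 and 15 of those 31 genes. These shares are descriptions of 1 pool of larvae, and no difference between the families was tested.

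Ugt35B1, Ugt37A2 and Ugt37D1 lay furthest below their own means on this array, by more than any other member. Ugt37A2 was at 5.45 in control replicate 1 and at 7.46 and 6.76 in control replicates 2 and 3, and its mutant values were 7.03, 7.36 and 7.31. The difference between genotypes was 0.68 (limma adjusted p = 0.700) with all arrays and 0.13 without that one. Ugt37D1 was at 6.03 there and at 7.85 and 7.44 in the other controls, with 7.30, 6.93 and 7.51 in mutants. Its difference was 0.14 with all arrays (limma adjusted p = 0.940) and -0.40 without that one (limma adjusted p = 0.577). Neither was called. Ugt37C2 had control values of 4.18, 5.26 and 4.93 against 4.75, 4.84 and 4.97 in mutants. The difference was 0.065 (limma adjusted p = 0.950), and -0.24 without the array.

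Other members were not low on this array or varied little. Ugt36D1, the brightest, had its highest value in control replicate 1, at 10.50, against 10.10 and 9.84 in the other controls and 10.33, 10.02 and 10.28 in mutants. Its difference was 0.067 (limma adjusted p = 0.926), and 0.24 without that array. Ugt316A1 stayed between 9.16 and 9.51 on all 6 arrays, and Ugt317A1 between 6.75 and 7.05. The values of Ugt316A1 were 9.48, 9.36 and 9.16 in mutants and 9.42, 9.51 and 9.40 in controls. Its difference was -0.11 (limma adjusted p = 0.766), and -0.12 without control replicate 1. Ugt36A1, the gene Dorothy, which is known for its expression in the larval lymph gland, stayed between 7.02 on control replicate 1 and 7.42. Ugt36E1, known from olfactory neurons of the adult fly, lay between 5.63 and 6.09.

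For Ugt35A1 the size of the difference depended on each of the controls. Its mutant values were 9.38, 9.42 and 9.36 and its control values 9.02, 9.75 and 9.77. With all arrays the difference was -0.13 (limma adjusted p = 0.872). It was -0.012 without control replicate 2 and -0.0011 without control replicate 3. Without control replicate 1 the remaining controls lay above all mutants, and the difference was -0.38 (limma adjusted p = 0.111), the smallest adjusted p of any member in that fit. It was not called there either, and its within-group SD in that fit was as small as 0.029. In that fit 4 of 24 members had groups that did not overlap, against 27.6% of all tested probesets, and 0.764% of all probesets were called.

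**Figure D3:**
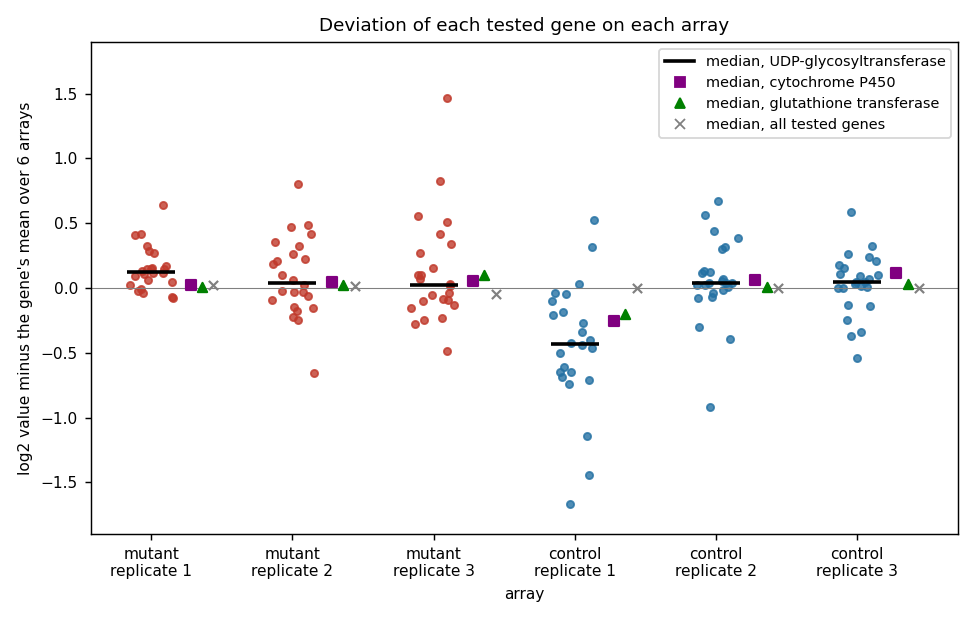
Deviation of each of the 24 tested genes from its own mean over the 6 arrays, on each array, in log2 units, with black bars for their median and symbols for the medians of cytochrome P450, glutathione transferase and all tested genes. On control replicate 1 the bar is at -0.43 and on the other arrays between 0.022 and 0.126.

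The spread among pools of 1 genotype was wide for most members. The within-group SD, taken over both groups, had a median of 0.297 over the 24 tested members, with quartiles of 0.219 and 0.361, and a median of 0.127 over all tested genes. Cytochrome P450 genes had 0.242 and glutathione transferase genes 0.186. Of the 24 members, 22 lay above the median of all tested probesets, and 15 lay above 0.271, the value that 10% of all tested probesets exceed.

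Without control replicate 1 the members' median SD was 0.181 and that of all tested genes 0.106. Still, 21 of the 24 members lay above the median of all probesets and 9 above the level that 10% exceed, 0.228. The widest SDs with all arrays were those of Ugt37A2 (0.732), Ugt37D1 (0.705), Ugt35B1 (0.697), Ugt37C2 (0.402) and Ugt37C1 (0.395). Without the array they were 0.322, 0.293, 0.570, 0.165 and 0.326 in that order. Ugt35B1 (3.68), Ugt37C2 (4.18) and Ugt37C1 (4.31) were under 4.51, the filter level, on control replicate 1. Ugt35B1 was also under it on control replicate 2 (4.43). The part of low signal in these spreads was not tested. Ugt37C1 had 5.06, 4.70 and 5.48 in mutants and 4.31, 4.90 and 5.07 in controls, a difference of 0.32 (limma adjusted p = 0.739). Ugt36A1 (0.116), Ugt316A1 (0.125) and Ugt317A1 (0.136) had the narrowest SDs.

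**Figure D4:**
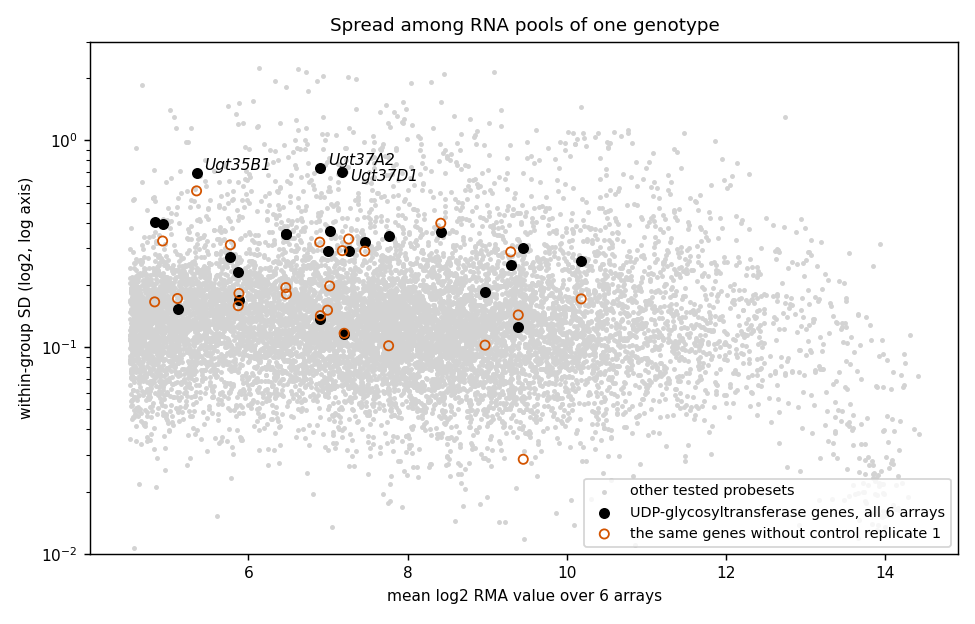
Within-group SD (log2 units, log axis) against mean log2 RMA value for all 11262 tested probesets (grey) and for the 24 UDP-glycosyltransferase genes with all 6 arrays (black) and without control replicate 1 (open orange). Of the black points, 22 lie above the median of all probesets, 0.127, and of the orange points 21 lie above that of the smaller fit, 0.106.

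Many of the genes stand next to each other. By the order of genes in the RefSeq assembly Release 6 plus ISO1 MT, 23 of the 35 members lie in 6 groups of neighbours with at most 5 other genes between 2 members. There are 17 members on 3R, the right arm of the third chromosome, 11 on 2L, 5 on 2R and 2 on 3L. Of the 11 tested members on 3R, 10 had a difference above 0, with a median of 0.36. On 2L 4 of 7 did, on 2R 3 of 4 and on 3L 0 of 2. Among all tested probesets 47.6% had a difference above 0, and the other genes of each arm were not read separately. Of the 11 tested members on 3R, 7 belong to 1 group of neighbours. The arm values come from all 6 arrays. Without control replicate 1, 6 of the 7 members in that group on 3R lay above 0, as with all arrays. So did both Ugt37A2 and Ugt37A3, and 1 of the 2 tested members of the group with Ugt303B3. These are all the tested members on 3R. Over the 4 arms 14 of all 24 tested members lay above 0 without that array, against 49.2% of tested probesets.

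The largest group holds 10 genes on 3R, in the order Ugt35C1, Ugt302K1, Ugt302E1, Ugt302C1, Ugt35E1, Ugt35E2, Ugt35B1, Ugt35A1, Ugt304A1 and Ugt303A1. The 3 members whose mutant values all lay above the controls, Ugt35C1, Ugt302K1 and Ugt35B1, belong to it. Their neighbours did not share this separation. Ugt302C1, between the pair at one end and Ugt35B1, had 8.93, 9.18 and 9.04 in mutants and 8.63, 9.04 and 9.00 in controls. Its difference was 0.16 (limma adjusted p = 0.744), and 0.027 without control replicate 1. Ugt35A1, directly next to Ugt35B1, had -0.13. Ugt304A1 (mutants 7.79, 7.81 and 7.19; controls 7.00, 7.52 and 7.46) and Ugt303A1 (mutants 7.13, 7.44 and 6.96; controls 6.33, 7.14 and 7.11) had 0.27 and 0.32, and 0.11 and 0.052 without that array. Ugt302E1, Ugt35E1 and Ugt35E2 were below the filter on level in this group.

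**Figure D5:**
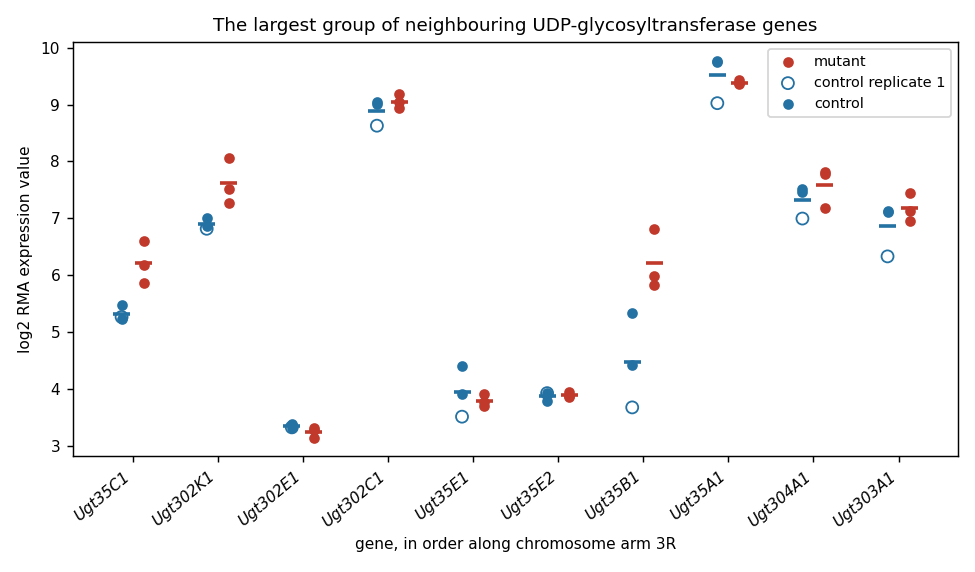
Log2 RMA values of the 10 neighbouring genes on 3R, in gene order, for mutants (red) and controls (blue, control replicate 1 as an open circle), with bars at the group means. The red points lie above all blue points for Ugt35C1, Ugt302K1 and Ugt35B1, and the groups overlap for the others.

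In the group of Ugt303B3, Ugt303B1 and Ugt303B2 the first 2 genes were tested. Ugt303B3 had 6.76, 6.66 and 6.39 in mutants and 5.83, 6.50 and 6.72 in controls, a difference of 0.26 that came to -0.0031 without control replicate 1. The neighbours Ugt37A2 and Ugt37A3 had 0.68 and 0.36. The tested pair of the group Ugt37C2, Ugt37E1 and Ugt37D1 had 0.065 and 0.14, and both were below 0 without that array. Ugt36D1 and Ugt36E1, next to the dim Ugt36F1, had 0.067 and -0.11. Ugt49B1, next to the dim Ugt49C1, had 0.33 (mutants 7.93, 7.82 and 8.03; controls 7.05, 7.79 and 7.93), and 0.063 without that array.

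The 11 dim members had differences from -0.42 to 0.20 and were tested only in a fit of all 18769 probesets, in which 0.373% were called. None of them was called there. Ugt49B2 had the smallest p of all 35 members in that fit: its mutant values were 3.98, 3.81 and 3.86 and its control values 4.29, 4.35 and 4.28, a difference of -0.42 (limma adjusted p = 0.105). All 3 mutant values lay below the controls, at levels where a change in signal need not follow the transcript. Ugt35D1, at 3.86, 3.94 and 3.99 in mutants and 3.67, 3.85 and 3.85 in controls, was the other dim member without overlap. In that fit 13.8% of all probesets had groups that did not overlap.

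Of 17 listed genes of UDP-sugar supply and transport, 11 were tested and 1 was called. This was sgl, UDP-glucose dehydrogenase, which turns UDP-glucose into UDP-glucuronic acid. Its values were 9.88, 9.68 and 9.91 in mutants and 10.41, 10.60 and 10.44 in controls, so the groups lay apart on every array. It fell by 0.66 (SE 0.10; limma adjusted p = 0.0478), a call that was lost in all 6 fits with 1 array left out (adjusted p from 0.0530 to 0.212). Galk, galactokinase, had -0.37 (limma adjusted p = 0.190) and nac, a GDP-fucose transporter of the Golgi, 0.17 (limma adjusted p = 0.662). The list's median was 0.010, which is not a median of UDP-sugar genes alone, since the list holds nac. With control replicate 1 left out these values were -0.70 for sgl, -0.43 for Galk and 0.085 for nac, the median was -0.016 and no gene of the list was called.

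Among transporters that carry drugs and organic anions, 1 of 13 tested genes of 16 listed was called. Oatp58Db, an organic anion transporter, had 6.29, 6.55 and 6.52 in mutants and 5.24, 5.14 and 5.16 in controls. The groups lay far apart compared with the spread within each. It rose by 1.27 (SE 0.09; limma adjusted p = 0.00348) and was called in all 6 fits with 1 array left out (adjusted p at most 0.0375). Mdr65, a drug efflux pump of the blood-brain barrier, had 0.27 (limma adjusted p = 0.392) and Oatp74D, a transporter of ecdysone, -0.21 (limma adjusted p = 0.422). The list's median was 0.11. Oatp58Db without control replicate 1 had 1.30, Mdr65 0.22 and Oatp74D -0.21, the median was 0.13 and Oatp58Db was the 1 gene called.

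No regulator of detoxification was called among 9 tested genes of 14 listed, whose median was -0.060. The bHLH-PAS partner gene tgo had -0.19 (limma adjusted p = 0.639), the xenobiotic nuclear receptor gene Hr96 -0.18 (0.702) and the nuclear receptor gene svp 0.13 (0.759). They had, without control replicate 1, -0.089, -0.31 and 0.13 in that order, the median was -0.031 and none was called. Of 16 listed sulfotransferases and other conjugating or hydrolysing enzymes 10 were tested and none was called with all arrays, with a median of -0.18. In this list alpha-Est7, a carboxylesterase whose blowfly counterpart is tied to insecticide resistance, had -0.71 (limma adjusted p = 0.352), St1, a sulfotransferase, -0.21 (0.617) and ry, xanthine dehydrogenase, -0.30 (0.642). The mutant mean of St1, 4.46, lay under 4.51, the level at which the filter was set. St1 passed the filter only through its control values, so the size of its difference is uncertain. In the fit without control replicate 1 alpha-Est7, St1 and ry had -0.92 (limma adjusted p = 0.0521), -0.31 and -0.14, and the list's median was -0.16. In that fit 1 gene of the list was called, the sulfotransferase gene St3, which is named here after its values were seen. Its difference was -0.15 with all arrays (limma adjusted p = 0.921) and -0.62 without that array (limma adjusted p = 0.0326).

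Markers of the tissues known for these enzymes were read beside them. The fat body marker Fbp1, the receptor of larval serum protein, was at 13.9 ± 0.05 in mutants and 13.7 ± 0.17 in controls (SD, n = 3 per group). None of 6 tested markers of 9 listed was called, with 0.28 for Fbp1, 0.073 for apolpp and 0.21 for Apoltp, both lipid carriers of the hemolymph. Fbp1 without control replicate 1 had 0.38, apolpp 0.089 and Apoltp -0.19, so the value of Apoltp changed sign with that array, and none was called. On the arrays this list's median deviation lay between -0.017 and 0.090 in mutants and between -0.069 and 0.016 in controls, and it was 0.016 on control replicate 1. The markers Lsp2, Fbp2 and Fbp1 had control means of 14.15, 14.07 and 13.7, near the highest signals on the arrays, and apolpp had 13.2. At such levels a change in transcript may not show in the signal. This median therefore does not show whether fat body RNA was low on control replicate 1. Of the dimmer Apoltp and Lpin, with control means of 9.23 and 8.73, Apoltp was lower there than the mean of the other controls and Lpin was not. Midgut markers had 9 tested of 12 listed and none called, with -0.76 for the trypsin gene betaTry (limma adjusted p = 0.521), -0.31 for the protease gene Jon99Ci and -0.45 for the mannosidase gene LManVI. Leaving out control replicate 1 gave -1.09 (limma adjusted p = 0.0718), -0.52 and -1.16 in that order, none of them called. Of the 9 tested midgut markers, 4 had a difference above 0 and 5 below with all arrays, and 1 lay above 0 without that array. Their median deviation was -0.20 on control replicate 1, 0.084 and 0.11 on the other controls and -0.19 on mutant replicate 3. Its part in the low UDP-glycosyltransferase values of control replicate 1 was not tested.

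Malpighian tubule markers had 9 tested of 12 listed and none called. The zinc transporter gene ZnT35C had 0.50 (limma adjusted p = 0.102), Ndae1, an anion exchanger, -0.28 (0.544) and tsh, a transcription factor of stellate cells, -0.12 (0.767). Their values without control replicate 1 were 0.48, -0.31 and -0.021, none called. The list's median deviation lay between -0.046 and 0.025 in mutants and between 0.0066 and 0.050 in controls. Antennal and olfactory markers had 5 tested of 10 listed and none called, with -0.34 for the odorant-binding protein gene Obp83b (limma adjusted p = 0.348), -0.30 for Os-C and -0.089 for Obp99a. These were -0.33, -0.19 and -0.095 without control replicate 1, none called. Of these 5 tested markers, 2 had a difference above 0 and 3 below with all arrays. Obp99a and Obp56a had control means of 11.0 and 10.4. Those of Os-C, a10 and Obp83b were 5.20, 5.06 and 4.68. Whether these genes mark antennal tissue in whole larvae was not tested. The mutant mean of Obp83b, 4.35, lay under 4.51, the level at which the filter was set. Obp83b passed the filter only through its control values, so the size of its difference is uncertain. The median difference was 0.051 for the fat body markers and -0.0088 for those of the midgut. It was -0.037 for those of the Malpighian tubules and -0.089 for the antennal and olfactory list. These medians without control replicate 1 were 0.035, -0.053, -0.0074 and -0.095 in that order.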

How the data were processed

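The table analysed holds log2 expression values of 6 one-colour Affymetrix arrays, 3 per genotype, which the authors made by robust multi-array average (background correction, normalization between arrays, 1 value per probeset) (per the submitters' processing notes and, for the steps, the labels' design text). Genes were also filtered by present calls, per the same text; the deposited table holds 18952 probesets, 183 of them controls, without such calls. RMA brings arrays to a common distribution, so a shift shared by most genes would not be seen. Symbols came from the platform annotation (13647 probesets with 1 symbol, 402 with several, 4720 not listed), and chromosome arm and gene order from RefSeq, Release 6 plus ISO1 MT. Sequences of the genes or proteins are not used here.

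The tests were made with limma version 3.58.1 (lmFit, eBayes, two-sided, Benjamini-Hochberg over all tested probesets) in R 4.3.3, after leaving out control probesets and the 40% with the lowest mean. Intervals are limma's 95% intervals. Fits with an array left out kept the same 11262 probesets. A gene was to be read by its brightest probeset, and each member had 1. The steps were tested on simulated data. Plots were made in Python 3.11.15 with matplotlib 3.10.9. The number of arrays limits the precision.

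Named in full are members called, the 6 with the smallest p, the 5 brightest, the 5 with the widest spread, and up to 3 genes per list with the smallest p. Other members are named with their values because they complete the family or its groups of neighbours, chosen after their values were seen. The members and lists were chosen with earlier results of these data known.

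Samples were grouped by title. The alternatives tried were other filters on level, normalizations, weights, priors, a replicate block, other rules for probesets and members, and leaving out each array.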

Additional observations from a re-analysis of the deposited data

How the results depend on the processing

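No member was called in any fit. Without a filter on level, without the dimmest 60%, after quantile normalization or median centring, with array weights, with an intensity trend and robust prior, with gene means over probesets and with members taken by RefSeq symbol, the smallest adjusted p ranged from 0.0628 (array weights) to 0.346 (dimmest 60% left out). With the replicate number as a block it was 0.0774, and the calls among all probesets went from 62 to 28. The numbers were not taken as pairs: deviations of same-numbered arrays from their group means correlated at 0.053, -0.19 and 0.32, and 1 of 3 mutant arrays correlated best with its own number. Those calls were 27 without the dimmest 60%, 232 with array weights, and between 13 and 86 with 1 array left out. Of 327 values of single members under an alternative, 316 kept their direction and 11 did not, none of them called. Other filters on level, the intensity trend, the replicate block and gene means over probesets leave each difference unchanged. In those fits no direction could turn, so the 316 include values that were fixed in advance. All 11 came with array weights or with 1 array left out. Array weights turned Ugt37C1 to -0.079, Ugt37C2 to -0.17 and Ugt37D1 to -0.40. With 1 array left out, the values ran from -0.0031 to 0.44 for Ugt303B3, from -0.27 to 0.12 for Ugt305A1, from -0.086 to 0.24 for Ugt36D1, from -0.22 to 0.077 for Ugt37B1, from -0.24 to 0.30 for Ugt37C2, from -0.40 to 0.51 for Ugt37D1 and from -0.024 to 0.17 for Ugt50B3. The median difference ran from 0.055 (without control replicate 1) to 0.32 (without control replicate 2), was 0.087 over all 35 members without a filter and 0.11 with array weights, and the median within-group SD from 0.181 (without control replicate 1) to 0.337 (without mutant replicate 2). Members whose groups did not overlap numbered 7 without mutant replicate 1 or control replicate 2 (against 25.1% and 24.6% of all probesets). They numbered 5 without mutant replicate 3 (33.7%) and 4 in the other fits with 1 array left out (21.6% to 27.6%). Without the dimmest 60% there was 1 of 15 tested (16.8%). These counts were added after seeing the data. Members at an unadjusted p under 0.05 numbered 7 with array weights (against 19.0% of all probesets) or without control replicate 2 (7.39%). They numbered 2 without the dimmest 60% (9.23%) and from 3 to 5 in the other fits (5.31% to 10.5%). The 5 were found among all 35 members without a filter on level (7.51%).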
